A study of Homo sapiens with 9 samples.

Results

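Transcript levels of 10 genes of glutathione chemistry were followed in the human lung cancer cell line NCI-H358, an established line, through 3 states of resistance to sotorasib, a covalent inhibitor of a mutant RAS protein. The genes were taken by name, as 5 glutathione peroxidases (GPX1, GPX2, GPX3, GPX4 and GPX8) and 5 glutathione transferases (MGST1, MGST2, MGST3, GSTP1 and GSTK1), out of 60230 genes in the deposited tables, and all 10 passed the filter on low counts. NCI-H358-R, the resistant derivative, was selected by culture of the line in 250 nM sotorasib for about 2 months and is normally kept in that dose. It was profiled on drug, 4 days after dosing with 250 nM, and off drug, without sotorasib, for a time that the labels do not give. The untreated, sotorasib-sensitive parental line was the starting point for both. Each state had 3 RNA sequencing libraries, described as biological replicates. Nothing says that separate cultures were used, so a p-value here weighs a change against the spread of these libraries, part of which may be technical. There was 1 resistant line, so what goes with resistance and what goes with that line cannot be told apart.

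Glutathione is the small thiol that cells use to remove peroxides and reactive chemicals. Glutathione peroxidases spend it to reduce hydrogen peroxide and lipid peroxides to water and alcohols, and the oxidised form is returned to the thiol by glutathione reductase with NADPH. GPX1 works in the cytosol and mitochondria, GPX2 is the epithelial and gastrointestinal form, GPX3 is secreted, GPX4 reduces phospholipid peroxides in membranes and so restrains ferroptosis, and GPX8 sits in the endoplasmic reticulum. Glutathione transferases join the thiol to reactive compounds. GSTP1 is the cytosolic pi class enzyme, GSTK1 is found in mitochondria and peroxisomes, and MGST1, MGST2 and MGST3 are membrane proteins with transferase and, for some substrates, peroxidase activity. GPX2 is known as a target of NRF2, the transcription factor of the oxidative stress response.

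The peroxidases differ at the residue that meets the peroxide, and their transcripts show it. GPX1 to GPX4 carry TGA there, a stop codon that is read as selenocysteine, while GPX8 has a cysteine codon. The 27 bases around that codon, from GENCODE 29 transcripts on GRCh38 and printed 5′ to 3′ with the codon in capitals, were as follows.
GPX1: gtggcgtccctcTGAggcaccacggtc
GPX2: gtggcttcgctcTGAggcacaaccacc
GPX3: gtggccagctacTGAggcctgacgggc
GPX4: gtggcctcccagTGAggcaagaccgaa
GPX8: gtggccagtgacTGCcaactcacagac
The codons lie at chr3:49358132-49358134 (minus strand) for GPX1, chr14:64942607-64942609 (minus strand) for GPX2, chr5:151025469-151025471 (plus strand) for GPX3, chr19:1105403-1105405 (plus strand) for GPX4 and chr5:55161024-55161026 (plus strand) for GPX8. GPX1 and GPX2 were the most alike of the 10 pairs, with 21 of 27 bases identical, and GPX2 and GPX8 the least alike, with 11. The GPX8 stretch was placed as the in-frame one nearest to that of GPX3, with which it shares 18 bases.

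In GENCODE 29 the peroxidase genes lie at chr3:49357171-49358600 (GPX1), chr14:64939152-64942905 (GPX2), chr5:151020438-151028993 (GPX3), chr19:1103926-1106791 (GPX4) and chr5:55160118-55167071 (GPX8). The transferase genes lie at chr12:16347142-16609259 (MGST1), chr4:139665768-139740745 (MGST2), chr1:165630861-165661796 (MGST3), chr11:67583595-67586656 (GSTP1) and chr7:143244093-143270854 (GSTK1). So no 2 members are neighbours, and GPX3 and GPX8 are the only pair on 1 chromosome.

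Of the 10 genes, 9 have a promoter entry in the RefSeq table (GRCh38.p14), 13 entries in all, each from 250 bases before to 50 after a start site. The core of the antioxidant response element, at which NRF2 binds with small MAF proteins, was searched as TGACNNNGC on both strands. It was present in windows of 3 members, GPX2, GSTP1 and MGST1, for MGST1 in 1 of its 3 windows. Counted by entry rather than by gene, it was present in 13.3% of the 35116 promoters of the table. The AP-1 motif TGANTCA, present in 7.71% of promoters, was found in GSTP1 alone among the members, where it overlaps the antioxidant element. The 250 bases before the start sites of GPX2 and GSTP1 are shown because these genes had the largest fall and the highest on-drug level of the family, with the antioxidant element in capitals (in GPX2 it reads on the opposite strand).
GPX2: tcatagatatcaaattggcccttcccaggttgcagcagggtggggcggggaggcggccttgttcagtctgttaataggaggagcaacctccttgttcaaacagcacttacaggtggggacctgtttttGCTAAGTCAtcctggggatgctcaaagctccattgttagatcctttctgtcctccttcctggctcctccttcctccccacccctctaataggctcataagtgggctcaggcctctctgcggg
GSTP1: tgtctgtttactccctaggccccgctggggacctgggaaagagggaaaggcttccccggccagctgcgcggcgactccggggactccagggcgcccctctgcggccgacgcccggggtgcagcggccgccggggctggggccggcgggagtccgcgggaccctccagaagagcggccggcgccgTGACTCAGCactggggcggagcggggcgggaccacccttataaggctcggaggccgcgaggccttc
They are chr14:64942746-64942995 (minus strand) and chr11:67583562-67583811 (plus strand). The element begins 122 bases before the GPX2 start site and 66 bases before that of GSTP1, and in MGST1 it lies 31 bases into the transcript of 1 of 3 start sites. A GC box, GGGCGG, was present in at least 1 window for 8 of the 9 genes, all but GPX8. By entry it was present in 45% of all promoters. Whether any of these letters is bound in these cells was not measured.

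Poly(A) RNA was measured, and the libraries held, in units of 1e6 estimated counts, 33.4 to 34.7 on drug, 25.7 to 34.0 off drug and 25.7 to 31.8 in parental cells. The 10 genes took 0.186 to 0.209%, 0.148 to 0.173% and 0.192 to 0.229% of them in the same order of states. In 1 library 3 counts equal 0.0864 to 0.117 CPM (counts per 1e6 counts), a floor that covers counting error only. Between states, levels are given as CPM scaled by TMM, which sets the libraries to a shared majority of genes, and changes on the log2 scale ± SE. Adjusted p-values (Benjamini-Hochberg, over 17307 genes) come from the quasi-likelihood test of edgeR. The makeup of the on-drug libraries was different, with TMM factors of 1.11 to 1.12 against 0.917 to 0.950 off drug and 0.937 to 0.972 in parental libraries. Scaling by library size only moved the median of all genes up by 0.26 (log2) on drug against off drug and by 0.22 on drug against parental cells, and the deposited TPM moved it up by 0.20 and 0.30. Directions that hang on this are named where they occur. In RNA from a whole culture, fewer cells of a type and less RNA per cell cannot be told apart.

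Epithelial markers were expressed in all states, and most were lower on drug. The 6 epithelial markers summed to 2792 to 3696 TPM on drug, 4091 to 4639 TPM off drug and 3927 to 4672 TPM in parental libraries. On drug 4 of the 6 fell and 1, CDH1, rose against off drug (0.51 ± 0.10, adjusted p = 0.000421, edgeR). Among all tested genes 31.2% were called lower and 31.4% higher there (adjusted p under 0.05, edgeR). Against parental cells 4 fell, beside 32.9% of all tested genes, among them EPCAM at -1.68 ± 0.08 and KRT19 at -1.49 ± 0.11 (adjusted p = 8.3e-11 and 4.39e-09, edgeR). The 2 that rose were CDH1 at 0.30 ± 0.10 and KRT7 at 0.25 ± 0.08 (adjusted p = 0.0171 and 0.0148, edgeR). Of 5 lung lineage markers only NKX2-1 was expressed, at 54.2 to 68.2 TPM on drug, 10.4 to 12.4 TPM off drug and 20.6 to 23.1 TPM in parental cells, while SFTPB was at 0 and SFTPA1, SFTPC and SCGB1A1 did not exceed 0.377 TPM. The 6 fibroblast markers summed to 77.6 to 98.5 TPM on drug, 5.56 to 7.17 TPM off drug and 7.98 to 10.3 TPM in parental libraries. On drug 5 of 5 tested rose against parental cells, beside 33.4% of all tested genes. Most of that sum was LUM and COL1A1, and COL1A2, COL3A1, PDGFRB and DCN did not exceed 1.19 TPM in any library. The 4 leukocyte markers summed to 5.97 to 6.74, 47.7 to 56.4 and 36.2 to 40.5 TPM on drug, off drug and in parental cells, nearly all of it CD68, with PTPRC and CD3E at most 0.0662 TPM. The 4 endothelial markers summed to 2.90 to 4.15, 4.33 to 4.75 and 1.53 to 2.38 TPM. The part of these shifts in the results below was not tested.

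Per transcript length, the family was dominated by a few genes, and the order at the top differed on drug. TPM, the deposited measure per length, is used here to set genes side by side within a state. On drug, GSTP1 led with 1332 ± 98 TPM (SD, n = 3, as for all means here), followed by GPX1 with 859 ± 50 TPM, GPX4 with 541 ± 31 TPM and MGST1 with 410 ± 11 TPM. Off drug, GPX1 led with 1028 ± 67 TPM, followed by GSTP1 with 637 ± 26 TPM, GPX4 with 436 ± 14 TPM and MGST1 with 125 ± 1.1 TPM. In parental cells the same order held, with GPX1 at 1248 ± 148 TPM, GSTP1 at 584 ± 71 TPM, GPX4 at 429 ± 45 TPM and MGST1 at 242 ± 9.9 TPM. GSTP1 thus exceeded GPX1 in every on-drug library, at a TPM ratio of 1.36 to 1.74, and lay below it in every other library, at 0.566 to 0.658 off drug and 0.455 to 0.481 in parental cells. The ratio is taken within a library, so no scaling between libraries enters it.

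MGST3, GSTK1, MGST2, GPX3 and GPX8 lay between 30.0 and 123 TPM on drug, 34.2 and 77.8 TPM off drug and 23.6 and 99.8 TPM in parental cells. Neighbours in the order did not overlap over their libraries, except GPX3 and GPX8 on drug and GSTK1 and GPX8 off drug. GPX2 was last in every state, with 0.622 ± 0.110 TPM on drug, 0.422 ± 0.323 TPM off drug and 20.5 ± 1.6 TPM in parental cells. The 5 transferases together held 1881 to 2057 TPM on drug, 901 to 939 TPM off drug and 975 to 1142 TPM in parental libraries. The 5 peroxidases held 1387 to 1516 TPM, 1453 to 1607 TPM and 1625 to 1980 TPM. So the transferases made up the larger part of the family's TPM in all on-drug libraries and the smaller part in all others.

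**Figure D1:**
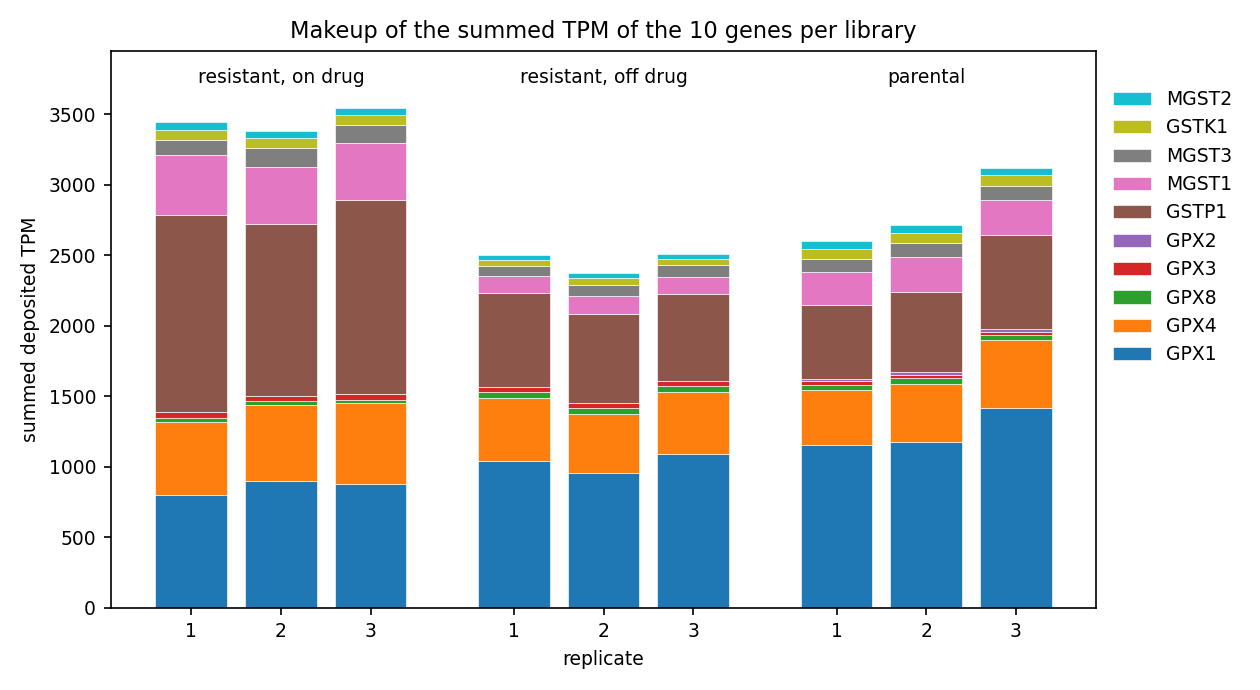
Deposited TPM of the 10 genes, stacked, in each of the 9 libraries (x axis, replicates within state; y axis, summed TPM). The summed TPM was 3384 to 3541 on drug, 2377 to 2508 off drug and 2599 to 3121 in parental libraries, and the GSTP1 segment is the tallest in the on-drug bars while GPX1 is the tallest in the others.

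The comparison of off-drug with parental cells asks what set the resistant line apart with no drug present. The family was mostly lower: GPX1, GPX2, MGST1, MGST2, MGST3 and GSTK1 fell, GPX3 rose, and GPX4, GPX8 and GSTP1 did not pass the test. That is 6 members lower and 1 higher, beside 26.6% of all tested genes called lower and 28.4% called higher. The median change of the members was -0.41, against 0.0007 over all genes.

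The comparison of on-drug with off-drug cells asks what went with the drug's presence in the resistant line. MGST1, MGST3, GSTP1 and GSTK1, all transferases, rose, GPX1 and GPX8, both peroxidases, fell, and GPX2, GPX3, GPX4 and MGST2 did not pass the test. The count of 4 higher and 2 lower stands beside 31.4% of all tested genes called higher and 31.2% called lower, and the members' median was 0.31, against 0.02 over all genes. With library size only, the members' count was 6 higher and 2 lower and that over all genes 7784 higher and 3585 lower, against 5431 and 5403 with TMM.

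In the comparison of on-drug with parental cells, GPX3, MGST1 and GSTP1 rose, GPX1, GPX2, GPX8, MGST2 and GSTK1 fell, and GPX4 and MGST3 did not pass the test. The count of 3 higher and 5 lower stands beside 33.4% of all tested genes called higher and 32.9% called lower, with a members' median of -0.22 against 0.02 over all genes. With library size only it was 3 higher and 3 lower, and over all genes 7597 higher and 4225 lower, against 5777 and 5690 with TMM. The 3 comparisons share libraries pairwise, so they are not independent of each other.

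**Figure D2:**
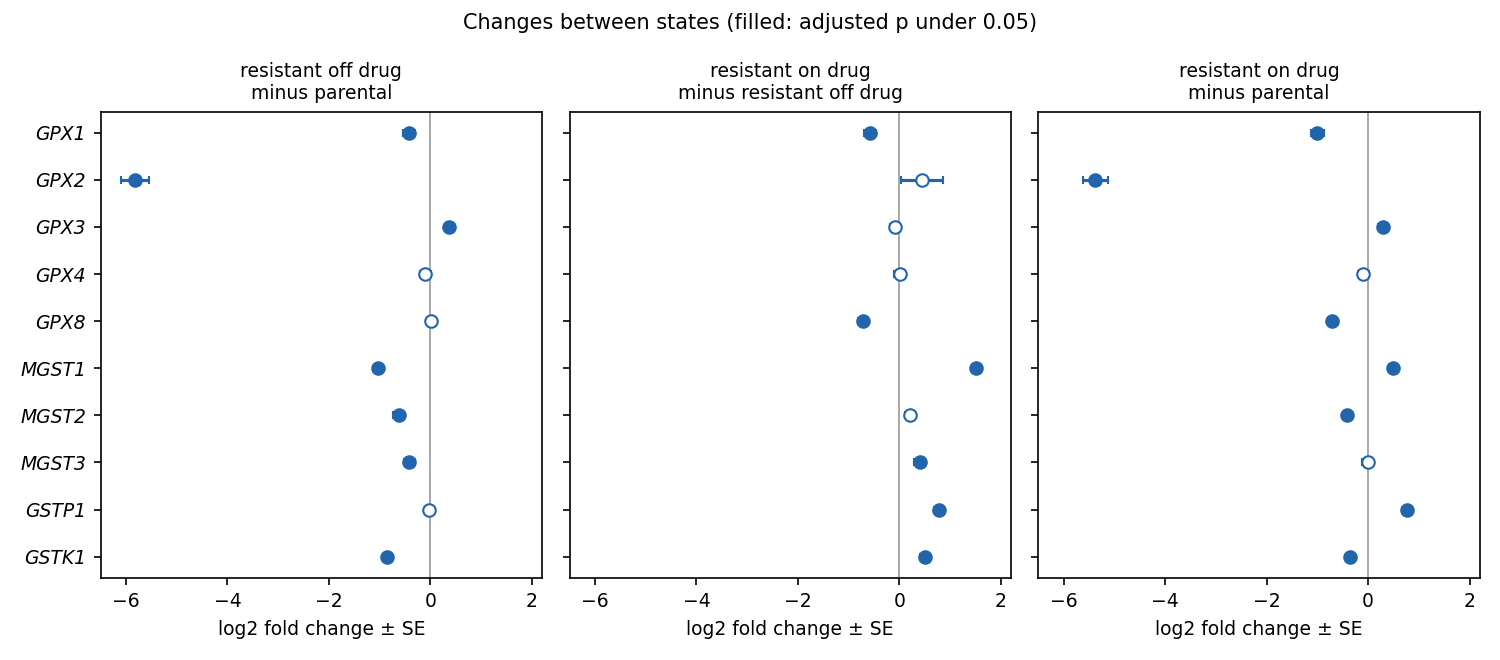
Log2 fold changes ± SE of the 10 genes (rows) in the 3 comparisons (panels), from edgeR. Filled points passed an adjusted p of 0.05; GPX2 stands far to the left in both comparisons with parental cells, at -5.83 off drug and -5.38 on drug, and MGST1 lies left of 0 in the first panel and right of it in the others.

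GPX2, the epithelial peroxidase, had the largest change of the family and was at very low levels in both resistant states. Its levels were 0.340, 0.296 and 0.336 CPM on drug, 0.198, 0.450 and 0.0963 CPM off drug, and 12.2, 13.8 and 15.0 CPM in parental libraries. Both resistant states lay far below the parental libraries, with no overlap, and the on-drug values lay within the off-drug range. The fall was -5.83 ± 0.27 off drug (adjusted p = 1.52e-10, edgeR) and -5.38 ± 0.25 on drug (adjusted p = 2.41e-11, edgeR) against parental cells. These values rest on few reads: 11 to 13 estimated counts per library on drug and 3 to 11 off drug, against 344 to 403 in parental cells. The lowest library, off-drug replicate 3, had 3 counts with an exact 95% Poisson interval of 0.619 to 8.77, which covers counting error only. Leaving out off-drug replicate 2, the highest of its group, moved the off-drug change to -6.56, and on the log2(TPM + 1) scale, which understates changes of low genes, it was -3.94 off drug and -3.73 on drug. Between on-drug and off-drug cells GPX2 did not pass the test (0.45 ± 0.42, adjusted p = 0.37, edgeR; 95% interval -0.45 to 1.34), but it did without off-drug replicate 2 (1.17, adjusted p = 0.0392).

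GPX1, the main cytosolic peroxidase, was lowest on drug and highest in parental cells. It had 484, 627 and 561 CPM on drug, 824, 726 and 951 CPM off drug and 1046, 1009 and 1286 CPM in parental libraries. The 3 states did not overlap, so each comparison separated its groups fully. It fell by 0.42 ± 0.12 off drug against parental cells (adjusted p = 0.00743, edgeR), fell by 0.58 ± 0.12 on drug against off drug (adjusted p = 0.000541) and fell by 1.00 ± 0.12 on drug against parental cells (adjusted p = 2.19e-06), a level 0.501 times the parental one. The last value was -0.53 on the log2(TPM + 1) scale. GPX1P1, a processed pseudogene of GPX1 with near-identical sequence, was listed at 1.30 to 3.09 TPM on drug, 2.52 to 3.09 TPM off drug and 2.95 to 4.86 TPM in parental cells, so few reads were assigned to it.

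GPX8, the endoplasmic reticulum form with a cysteine codon, differed in the on-drug libraries. It had 43.6, 52.6 and 43.3 CPM on drug, 76.6, 74.5 and 79.1 CPM off drug and 79.2, 75.7 and 72.8 CPM in parental libraries. The on-drug libraries lay below all others, and the off-drug and parental libraries overlapped. On drug it fell by 0.72 ± 0.09 against off drug (adjusted p = 2.74e-06, edgeR) and by 0.71 ± 0.09 against parental cells (adjusted p = 2.96e-06). Off drug against parental cells it did not pass the test (0.02 ± 0.09, adjusted p = 0.898), and the sign was negative with upper-quartile factors or library size only.

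GPX3, the secreted form, was the only member that rose off drug. It had 41.1, 35.9 and 42.0 CPM on drug, 42.8, 40.5 and 43.2 CPM off drug and 30.9, 30.3 and 36.3 CPM in parental libraries. Off drug all libraries lay above the parental ones, and on drug the lowest library lay just below the highest parental one. The rise was 0.37 ± 0.09 off drug (adjusted p = 0.00283, edgeR) and 0.29 ± 0.09 on drug (adjusted p = 0.0121) against parental cells. The second of these did not pass without parental replicate 1, parental replicate 2, on-drug replicate 1 or on-drug replicate 3 (adjusted p = 0.0557, 0.0624, 0.0518 and 0.0649). The on-drug minus off-drug value was -0.09 ± 0.09 (adjusted p = 0.419), positive with upper-quartile factors, library size only and TPM.

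GPX4, the phospholipid peroxide reductase, had the narrowest span of the family, 0.10 on the log2 CPM scale between its group means. It averaged 296 ± 27 CPM on drug, 295 ± 29 CPM off drug and 316 ± 43 CPM in parental cells, and the states overlapped. It did not pass the test off drug against parental cells (-0.10 ± 0.11, adjusted p = 0.444, edgeR), on drug against off drug (0.01 ± 0.11, adjusted p = 0.962) or on drug against parental cells (-0.09 ± 0.11, adjusted p = 0.446). The 95% intervals were -0.32 to 0.12, -0.22 to 0.23 and -0.32 to 0.13. This depends on the scaling. The sign off drug against parental cells was positive in TPM, and that on drug against parental cells was positive with library size only (0.13). With limma on log2(TPM + 1), GPX4 passed on drug against off drug (0.31, adjusted p = 0.00549) and, again with the opposite sign, on drug against parental cells (0.34, adjusted p = 0.00268), and it passed on drug against off drug with library size only (0.26, adjusted p = 0.026).

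MGST1, the microsomal transferase that also reduces lipid peroxides, moved in opposite directions in the 2 contrasts that involve off-drug cells. It had 172, 184 and 177 CPM on drug, 60.2, 60.2 and 65.3 CPM off drug and 118, 124 and 139 CPM in parental libraries. The states did not overlap, with the off-drug libraries lowest and the on-drug libraries highest. Off drug it fell by 1.04 ± 0.08 against parental cells (adjusted p = 3.89e-08, edgeR). On drug it rose by 1.52 ± 0.08 against off drug (adjusted p = 2.29e-10), a 2.87-fold difference, and by 0.48 ± 0.08 against parental cells (adjusted p = 6.62e-05). All 3 changes kept their sign and passed the test in each of the 19 alternative fits of their comparison.

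GSTP1, the pi class enzyme, rose on drug. It had 536, 535 and 574 CPM on drug, 322, 299 and 332 CPM off drug and 290, 300 and 376 CPM in parental libraries. All on-drug libraries lay above all others, and off-drug and parental libraries overlapped. The rise on drug was 0.79 ± 0.10 against off drug (adjusted p = 2.76e-06, edgeR) and 0.77 ± 0.10 against parental cells (adjusted p = 3.13e-06), 1.73- and 1.70-fold. Off drug against parental cells it did not pass (-0.02 ± 0.10, adjusted p = 0.875), with a positive sign in TPM.

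GSTK1, the mitochondrial and peroxisomal enzyme, was lowest off drug. It had 49.6, 53.2 and 52.3 CPM on drug, 36.4, 37.3 and 36.1 CPM off drug and 64.7, 61.5 and 71.6 CPM in parental libraries, with no overlap between states. Off drug it fell by 0.85 ± 0.08 against parental cells (adjusted p = 3e-07, edgeR), and on drug it rose by 0.50 ± 0.08 against off drug (adjusted p = 5.72e-05). On drug against parental cells it fell by 0.35 ± 0.08 (adjusted p = 0.00103), a call that ended with library size only (-0.13, adjusted p = 0.158) and on the log2(TPM + 1) scale (-0.01, adjusted p = 0.88).

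MGST2 and MGST3, membrane enzymes related to leukotriene C4 synthase, both fell off drug. MGST3 had 42.7, 56.0 and 50.5 CPM on drug, 32.6, 37.7 and 42.2 CPM off drug and 49.1, 49.2 and 51.4 CPM in parental libraries, so that off-drug libraries lay below all others. It fell off drug by 0.41 ± 0.11 against parental cells (adjusted p = 0.00431, edgeR) and rose on drug by 0.41 ± 0.11 against off drug (adjusted p = 0.00388). On drug against parental cells it did not pass (-0.01 ± 0.11, adjusted p = 0.962), with a positive sign under upper-quartile factors and library size only, and on the log2(TPM + 1) scale it was higher and passed (0.29, adjusted p = 0.0168).

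MGST2 had 17.8, 19.9 and 16.8 CPM on drug, 14.0, 16.1 and 16.7 CPM off drug and 22.8, 24.0 and 25.5 CPM in parental libraries, the parental libraries being highest. It fell against parental cells by 0.63 ± 0.10 off drug (adjusted p = 6.53e-05, edgeR) and by 0.41 ± 0.10 on drug (adjusted p = 0.00163). The on-drug fall did not pass with library size only (-0.18, adjusted p = 0.103) and on the log2(TPM + 1) scale (-0.10, adjusted p = 0.336). Between on-drug and off-drug cells MGST2 did not pass (0.22 ± 0.10, adjusted p = 0.0653), but it did with library size only (0.48, adjusted p = 0.000536), either other filter on low counts (0.24 and 0.27), limma on log2(TPM + 1) or log2(TPM + 0.1) (0.43 and 0.44), upper-quartile factors (0.35, adjusted p = 0.00662) and without on-drug replicate 3 (0.28, adjusted p = 0.0422). In GENCODE 29 exons of MGST2 overlap exons of MAML3 on the opposite strand, and the strand setting is not given, so reads of the 2 genes may not be told apart.

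**Figure D3:**
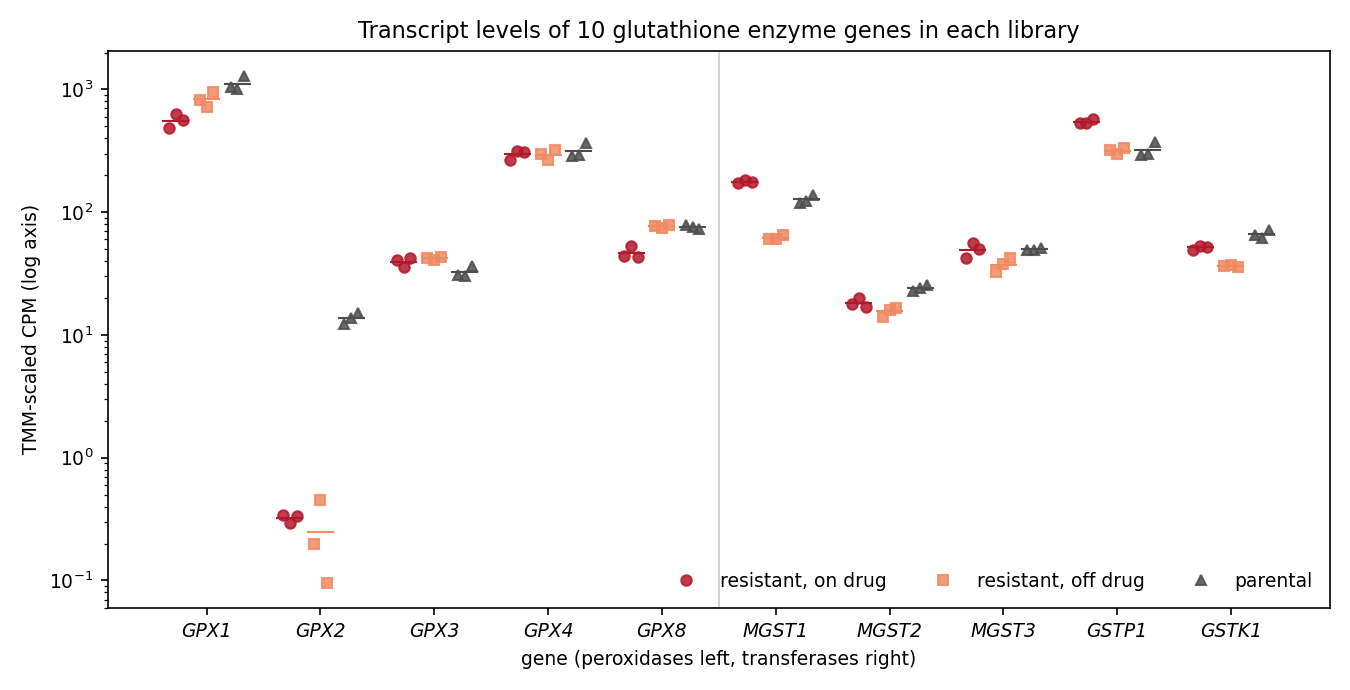
TMM-scaled CPM (log axis) of the 10 genes in the 9 libraries; circles, squares and triangles are on-drug, off-drug and parental libraries, 3 each, and lines are group means. GPX2 reaches at most 0.450 CPM in the resistant libraries and at least 12.2 CPM in the parental ones, MGST1 and GSTP1 are highest on drug, and GPX4 overlaps in all states.

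By gene, the transcripts quantified appeared much alike in length between states. Taken as count over TPM and divided by the library's median, the length of GPX1 was 0.379 ± 0.012 on drug, 0.410 ± 0.010 off drug and 0.416 ± 0.015 in parental cells, and that of GPX4 was 0.320 ± 0.007, 0.343 ± 0.009 and 0.343 ± 0.006. GSTP1 was at 0.242 ± 0.005, 0.253 ± 0.006 and 0.257 ± 0.006. These 3 highly expressed genes were thus counted as slightly shorter on drug, while GSTK1 stayed at 0.423 to 0.424. An edgeR fit with an offset for this length left every member's call as it was.

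Only GPX2 and MGST1 had group means that spanned 1 or more on the log2 CPM scale, 5.61 and 1.52, and for these the genes with the nearest profile over the 9 libraries were sought among 11050 genes, as a description. Nearest to GPX2 were CAPS, a calcium-binding protein (distance 0.965), SPANXB1, a cancer-testis gene whose near-identical copies may share reads (1.20), and ANXA8, an annexin (1.28). CAPS had 2.87 ± 0.20 TPM on drug, 2.69 ± 2.54 TPM off drug and 104 ± 13 TPM in parental cells, low in both resistant states as GPX2 was. Nearest to MGST1 were KIFC2, a kinesin (0.260), TMEM165, a Golgi membrane protein (0.263), and SUMF1, the enzyme that activates sulfatases (0.268). TMEM165 had 160 ± 8.0 TPM on drug, 49.7 ± 1.9 TPM off drug and 85.4 ± 0.8 TPM in parental cells, the same order of states as MGST1.

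Around the 10 genes, 108 further genes in lists of glutathione metabolism, antioxidant enzymes, selenoproteins and their regulators were read from the same fits. Of these 94 were tested. Off drug against parental cells 19 were called higher and 41 lower, or 20.2 and 43.6%, beside 28.4 and 26.6% of all genes. On drug against off drug 26 were called higher and 32 lower, or 27.7 and 34%, beside 31.4 and 31.2%. On drug against parental cells 18 were called higher and 45 lower, or 19.1 and 47.9%, beside 33.4 and 32.9%. With library size only these counts were 18 and 42, 46 and 25, and 31 and 34, so the balance on drug against off drug turned. The same shares of all genes stand beside the counts of the single lists below.

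Of 12 tested genes in the list of other peroxidases and transferases, 2 were higher and 3 lower off drug against parental cells. Over all tested genes 28.4 and 26.6% were called higher and lower there. On drug against off drug 2 were higher and 4 lower, beside 31.4 and 31.2% over all genes. The second count was 6 higher and 4 lower with library size only and 5 and 4 with upper-quartile factors, so that its balance turned with the scaling. Some of these calls were at levels below the naming rule. ALOX5AP, listed although neither a peroxidase nor a transferase, was among those higher off drug (2.93 ± 0.72) and lower on drug (-1.79 ± 0.61). It averaged -1.15 log2 CPM. The rises on drug against off drug, GSTM2 and LTC4S, averaged 0.28 and -1.33 log2 CPM. GSTO1, an omega class transferase, rose off drug by 0.39 ± 0.13 against parental cells (adjusted p = 0.019, edgeR) and on drug was at -1.52 ± 0.13 against off drug (adjusted p = 7.14e-08). GSTO2, its neighbour in the class, fell by 1.01 ± 0.10 off drug against parental cells and by 1.02 ± 0.11 on drug against off drug. PTGES, the prostaglandin E synthase of the same membrane family as MGST1, fell by 1.41 ± 0.10 on drug against off drug (adjusted p = 7.39e-09). So MGST1 and PTGES, relatives by family, moved in opposite directions on drug. GPX5, GPX6 and GPX7 did not pass the filter and averaged at most 0.0433 TPM in any state.

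Of 13 tested genes of glutathione supply and turnover, 2 were higher and 5 lower off drug against parental cells. On drug, 5 were higher and 8 lower against off drug, and 3 higher and 8 lower against parental cells. Over all tested genes 28.4 and 26.6%, 31.4 and 31.2%, and 33.4 and 32.9% were called higher and lower, in this order. The medians of the list were -0.12, -0.46 and -0.40. With library size only the counts on drug were 5 and 6 against off drug and 3 and 6 against parental cells, and the medians -0.21 and -0.17. SLC7A11, the cystine importer, fell by 2.15 ± 0.11 on drug against off drug (adjusted p = 1.56e-10, edgeR), and its partner SLC3A2 fell by 1.39 ± 0.11 (adjusted p = 1.4e-08). CHAC1, which breaks glutathione down, fell by 3.64 ± 0.11. GGT5, an extracellular glutathione hydrolase, fell by 5.10 ± 0.24 (adjusted p = 4.97e-11), at low levels of 0.12 ± 0.06 TPM on drug and 5.20 ± 2.38 TPM off drug. Other genes of the list, outside the naming rule in this comparison, rose: CHAC2 by 0.91 ± 0.16, GGCT by 0.84 ± 0.09, OPLAH by 0.58 ± 0.11 and GGT7 by 0.49 ± 0.10. GSR, the glutathione reductase, fell by 0.98 ± 0.07 off drug against parental cells (adjusted p = 2.55e-08) and fell by 0.72 ± 0.07 on drug against off drug (adjusted p = 4.3e-07). GCLC, the catalytic subunit of the first synthesis step, was named after its values were seen: it rose on drug by 0.74 ± 0.08 against off drug (adjusted p = 1.2e-06) and by 0.63 ± 0.08 against parental cells (adjusted p = 5.71e-06). Other synthesis genes, also outside the naming rule, fell on drug against off drug. GCLM, the modifier subunit of that step, fell by 0.46 ± 0.09 (adjusted p = 0.000396, edgeR). GSS, of the second step, fell by 0.20 ± 0.08 (adjusted p = 0.0397, edgeR). Against parental cells GSS fell by 0.32 ± 0.08 (adjusted p = 0.00266) and GCLM did not pass (-0.16 ± 0.09, adjusted p = 0.129).

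Transcripts of NADPH supply were mostly lower off drug: 7 of 8 genes fell against parental cells and 1 rose, with a median of -0.68. This stands beside 26.6% of all genes called lower and 28.4% called higher. IDH1, the cytosolic isocitrate dehydrogenase, fell by 0.78 ± 0.08 off drug, ME1, the cytosolic malic enzyme, fell by 0.72 ± 0.08, and TALDO1, the transaldolase, fell by 0.70 ± 0.08. With the drug present, against off drug, 4 rose and 2 fell, beside 31.4 and 31.2% of all genes. Among them were IDH1 with 0.70 ± 0.08 and TALDO1 with 0.66 ± 0.08, both higher, and NNT, the mitochondrial transhydrogenase, with -0.61 ± 0.09. On drug against parental cells 4 of 8 fell, beside 32.9% of all genes, and the others did not pass. IDH1 and TALDO1, like MGST1 and GSTK1, were thus lower off drug than in parental cells and higher on drug than off drug.

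Of 18 thioredoxin, peroxiredoxin and other antioxidant genes, 1 rose and 11 fell off drug against parental cells (median -0.33), beside 28.4 and 26.6% of all genes. Among those that fell were CAT, the catalase, by 1.35 ± 0.08 and PRDX5, a peroxiredoxin, by 0.67 ± 0.10. Between on-drug and off-drug cells 6 rose and 4 fell, beside 31.4 and 31.2% of all genes, and with library size only 11 rose and 4 fell. The 4 falls with TMM included GLRX, glutaredoxin, by 2.02 ± 0.10, TXNIP, the thioredoxin-binding protein, by 1.36 ± 0.08, and TXNRD1, a selenoprotein and thioredoxin reductase, by 0.82 ± 0.08. The largest of the 6 rises with TMM, outside the naming rule, were GLRX2 by 0.68 ± 0.09, GLRX5 by 0.54 ± 0.10 and SOD1 by 0.51 ± 0.09. On drug against parental cells 3 rose and 10 fell, beside 33.4 and 32.9% of all genes, and with library size only 6 and 7.

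GPX1 to GPX4 need the selenocysteine machinery. Of 9 tested genes of it, 3 rose and 3 fell off drug, and 2 rose and 3 fell on drug against off drug. On drug against parental cells 4 rose and 4 fell. Over all tested genes 28.4 and 26.6%, 31.4 and 31.2%, and 33.4 and 32.9% were called higher and lower, in this order. Calls in both directions were thus common among all genes. With library size only, 5 rose and 3 fell in both comparisons of on-drug cells. SEPHS1 rose by 0.71 ± 0.08 off drug against parental cells, SEPSECS, which makes selenocysteinyl-tRNA, fell by 0.95 ± 0.11 off drug and by 1.69 ± 0.12 on drug against parental cells, and TRNAU1AP, a binding protein of that tRNA, rose by 1.27 ± 0.11 on drug against off drug. Among 12 other selenoproteins 7 fell off drug against parental cells, beside 26.6% of all genes, and the others did not pass (median -0.33). On drug against off drug 3 rose and 2 fell, and with library size only 7 rose and 1 fell. SELENOP, the secreted selenium carrier, fell by 2.63 ± 0.20 off drug against parental cells and rose on drug by 3.32 ± 0.20 against off drug (adjusted p = 6.19e-10, edgeR). MSRB1, a methionine sulfoxide reductase, fell by 1.19 ± 0.09 and rose by 0.78 ± 0.09 in the same 2 comparisons.

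Conjugate export and glyoxalases, 7 genes, had 2 higher and 2 lower off drug against parental cells, beside 28.4 and 26.6% of all genes. They had 1 higher and 4 lower on drug against off drug, beside 31.4 and 31.2% of all genes, or 1 and 2 with library size only. ABCC5, an export pump, rose by 2.06 ± 0.09 on drug against off drug but fell by 0.55 ± 0.09 off drug against parental cells. ABCC1, which carries glutathione conjugates, rose by 0.57 ± 0.09 off drug against parental cells and fell by 0.48 ± 0.09 on drug against off drug. The other falls on drug against off drug were ABCC3, outside the naming rule, by 0.92 ± 0.11, ABCC4 by 0.45 ± 0.10 and GLO1 by 0.28 ± 0.07. Of 7 tested genes of lipid peroxidation, 3 rose and 2 fell off drug against parental cells. On drug 1 rose and 1 fell against off drug, or 4 and 1 with library size only. Against parental cells 2 rose and 2 fell on drug, beside 33.4 and 32.9% of all genes. ACSL4, which loads polyunsaturated fatty acids for membranes, rose by 0.58 ± 0.09 off drug against parental cells and fell by 0.89 ± 0.09 on drug against off drug. LPCAT3, of the same list, fell by 1.08 ± 0.11 off drug and by 0.92 ± 0.10 on drug against parental cells. AIFM2, a ubiquinone reductase that acts beside GPX4, rose by 1.54 ± 0.18 off drug and by 1.80 ± 0.18 on drug against parental cells, at low levels.

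Among 8 regulators, 5 rose and 1 fell off drug against parental cells, beside 28.4 and 26.6% of all genes. Then 2 rose and 4 fell on drug against off drug, beside 31.4 and 31.2% of all genes, or 3 and 3 with library size only. MAFF, a small MAF protein that pairs with NRF2, rose by 0.79 ± 0.10 off drug against parental cells and fell by 2.36 ± 0.11 on drug against off drug. BACH1, a repressor at the same element, rose by 0.42 ± 0.11 and fell by 1.03 ± 0.11 in these comparisons. On drug against parental cells 1 regulator rose and 4 fell, or 2 and 3 with library size only, beside 33.4 and 32.9% of all genes with TMM. The rise was KEAP1, which marks NRF2 for degradation, by 0.69 ± 0.09. MAFF fell there by 1.57 ± 0.11, and BACH1 and MAFK, whose libraries overlapped in TPM, fell by 0.60 ± 0.11 and 0.41 ± 0.09. TP63, a squamous lineage factor, fell by 3.49 ± 0.16 off drug against parental cells and rose by 1.86 ± 0.17 on drug against off drug. On drug against parental cells TP63 was at -1.63 ± 0.14. NFE2L2, which encodes NRF2, is given although outside the naming rule: it was at -0.17 ± 0.07 off drug against parental cells (adjusted p = 0.0693, edgeR) and 0.10 ± 0.07 on drug against off drug (adjusted p = 0.269), and passed neither test.

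**Figure D4:**
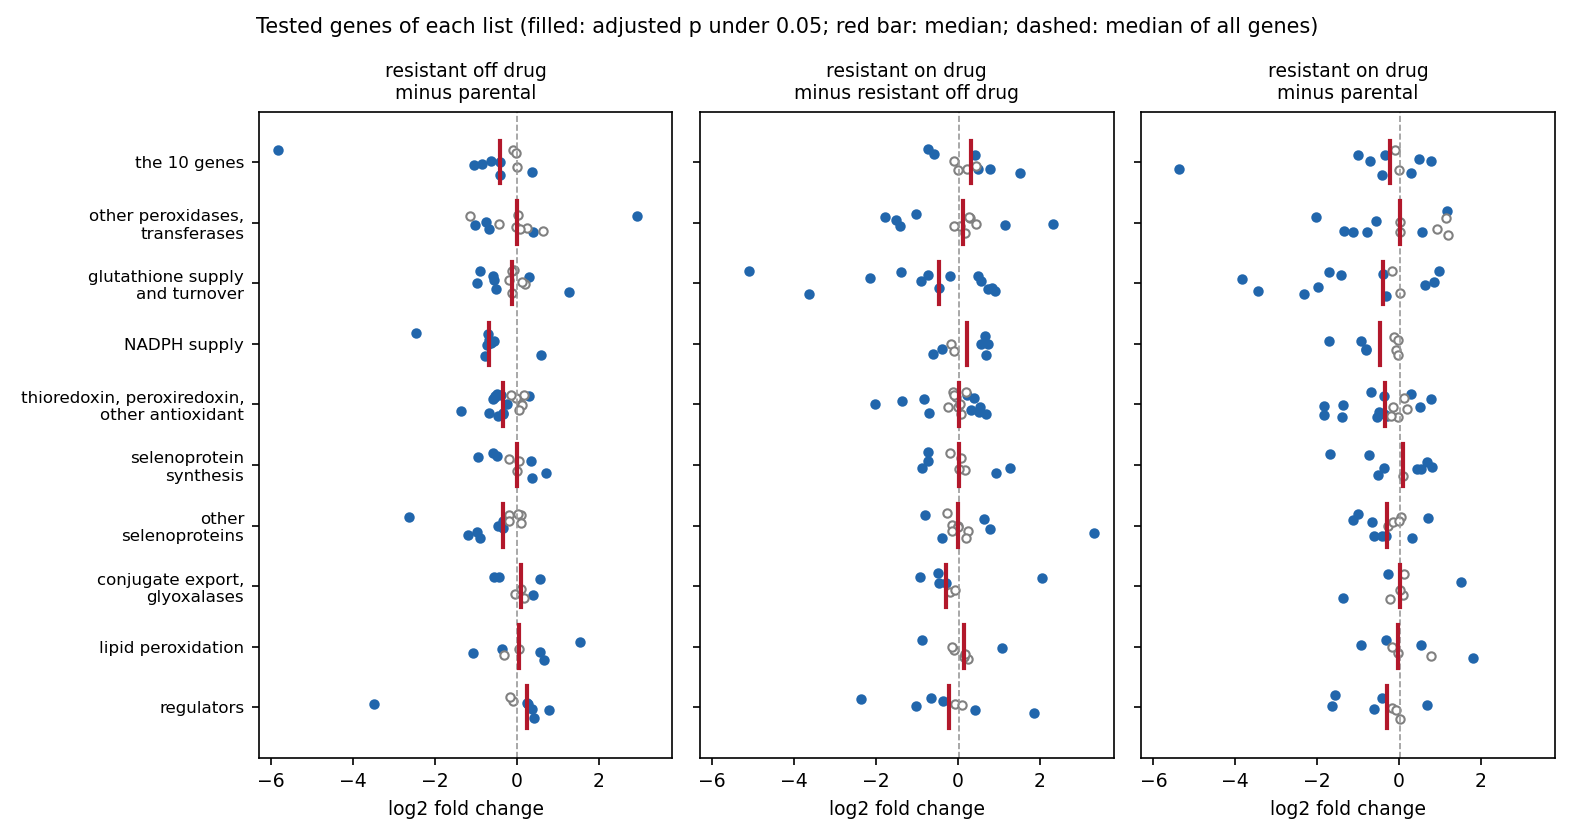
Log2 fold changes of all tested genes of each list (rows) in the 3 comparisons (panels), from edgeR with TMM; filled points passed an adjusted p of 0.05, red bars are list medians and the dashed line is the median of all genes. In the first panel the NADPH supply median lies at -0.68, and in the second the glutathione supply median lies at -0.46, or -0.21 with library size only.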

How the data were processed

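The submitters' processing notes name Salmon 0.14.1, FastQC 0.12.1, bcl2fastq 2.17 and the genome GRCh38.p13, without roles; annotation and strand setting are not given in the sources used. Per the labels' protocols, poly(A) RNA was made into NEBNext Ultra II libraries and read in pairs on a NovaSeq. The authors deposited estimated counts (partly fractional, unscaled) and TPM values (scaled for length and depth). Plain counts had been assumed in the design, so estimated counts were rounded before the count tests.

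The 10 members were matched by gene identifier and symbol. All 9 libraries entered 1 fit in edgeR 4.0.16 (R 4.3.3) with a mean per group, TMM and filterByExpr (minimum count 10, total 15), leaving 17307 genes and 6 residual degrees of freedom. SE is |log2 fold change| divided by √F. A call needs an adjusted p (Benjamini-Hochberg, all tested genes) under 0.05. Alternatives used DESeq2 1.42.0, limma 3.58.1 and other scalings, filters and samples. The steps were tested on simulated counts. Between libraries of a group, chi-square over its degrees of freedom was at least 5.11, so none were merged.

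Members, lists and alternatives were chosen with earlier results of these data known. Named are all members and, per list and comparison, up to 4 called genes with the largest change among those averaging at least 1 log2 CPM and not overlapping between groups; the text gives a selection, and 1 gene that the rule took is not reported here. For each member whose group means span 1 or more, the 3 nearest profiles (Euclidean distance of centred log2 CPM) are named. GSTT1 and SOD2 were not analysed here.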

Additional observations from a re-analysis of the deposited data

How the results depend on the processing

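Of 30 member results (10 genes in 3 comparisons), 21 were called, and 18 of these kept direction and call in all 19 alternative fits of their comparison; none of the 21 changed sign. The other 3, GPX3, MGST2 and GSTK1 on drug against parental cells, are described with those genes. Signs turned only for members that did not pass the test, and the cause was not tested. Off drug against parental cells, GPX4 was 0.0281 with limma on log2(TPM + 1) and 0.0282 on log2(TPM + 0.1), GSTP1 was 0.132 in both, and GPX8 was -0.0742 with upper-quartile factors, -0.0185 with library size only and -0.0153 with the stricter filter. On drug against off drug, GPX3 was 0.0440 with upper-quartile factors, 0.169 with library size only and 0.131 and 0.134 with the TPM fits, and GPX4 was -0.0092 with only the 2 groups fitted. On drug against parental cells, GPX4 was 0.13 with library size only, 0.34 with either TPM fit and 0.00015 with the transcript length offset, and MGST3 was 0.0378 with upper-quartile factors, 0.0404 with no filter, 0.216 with library size only and 0.291 and 0.294 with the TPM fits. Leaving out 1 library at a time, the ranges were -0.165 to 0.0212 for GPX4, -0.0117 to 0.0462 for GPX8 and -0.0912 to 0.108 for GSTP1 off drug against parental cells, -0.0673 to 0.0835 for GPX4 on drug against off drug, and -0.158 to 0.0259 for GPX4 and -0.108 to 0.0806 for MGST3 on drug against parental cells.

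The members called numbered 7, 6 to 8 and 6 to 8 in the 3 comparisons, and over all genes the limma fit on log2(TPM + 1) gave 4609 higher and 2529 lower off drug against parental cells, 5321 and 2995 on drug against off drug and 6502 and 2828 on drug against parental cells. Libraries with the same replicate number deviated together at correlations of -0.03 to 0.14, so the numbers were not taken to pair them; with the replicate block 7, 6 and 8 members and 9443, 10758 and 11417 genes were called, and no member's call changed. GPX2 in resistant cells, at 3 to 13 counts per library, is the value that depth limits most.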
